A study of Bos taurus with 8 samples.

Results

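The genes described here belong to the response that the transcription factor ATF4 drives when a cell lacks amino acids or is otherwise stressed, together with cytosolic aminoacyl-tRNA synthetases. They were chosen by name, as a list of 37 symbols, and a gene was represented by its brightest probe, the one with the highest mean log2 intensity. On the array, 32 of the 37 symbols had a named probe, out of 15227 gene symbols in all. The other 5 symbols, VLDLR2, DARS, EPRS, QARS and VARS, matched no named probe and are not analysed here. The 32 measured genes were 9 stress sensors, transcription factors and outputs (EIF2AK3, EIF2AK4, ATF4, DDIT3, CEBPG, PPP1R15A, DDIT4, SESN2 and CHAC1), 9 enzymes of amino acid and one-carbon metabolism (ASNS, PHGDH, PSAT1, PSPH, SHMT1, SHMT2, MTHFD1, MTHFD2 and ALDH1L2) and 14 tRNA synthetase genes. The 14 synthetase genes carry the older symbols of the array annotation, so that TARS, for example, is the gene now named TARS1.

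The samples were granulosa cells, the steroid-producing cells that line an ovarian follicle, from dominant follicles of Holstein cattle whose ovaries came from a slaughterhouse. The cells of 4 follicles in the growing phase were compared with those of 4 follicles in the plateau phase. The mural layer was scraped from single follicles and the stage was assigned from the DNA content of the cells by flow cytometry, so it rests on proliferation and fragmented DNA and not on an observed growth curve. No follicle was treated, and the age, cycle stage and reproductive status of the cows were not given in the sources used here. Each growing follicle was hybridised against 1 plateau follicle on an array that reads 2 dyes, and again on a second slide with the dyes exchanged, which gives 8 arrays for 4 follicle pairs. Pair numbers, 1 to 4, are the array positions on a slide. The labels do not name the follicles, so arrays at the same position on both slides were taken to hold the same pair. The atretic follicles of the study are not analysed here.

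ATF4 is made mainly by control of translation. When amino acids run short or proteins misfold, the kinases GCN2 (EIF2AK4) and PERK (EIF2AK3) phosphorylate the initiation factor eIF2, most protein synthesis slows, and the ATF4 message is translated more. ATF4 then raises the transcription of genes that make serine, glycine and asparagine, take up amino acids, supply one-carbon units on folate, and load amino acids onto tRNA. An array reads only the messages, so it sees the targets and the ATF4 transcript but not the phosphorylation of eIF2 nor the ATF4 protein.

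Values are log2 ratios of plateau over growing, positive where the transcript was higher in the plateau follicle, and levels are normalised log2 intensities averaged over the 2 arrays of a follicle. The level of one probe says nothing about that of another, so levels are compared between follicles only. Over all probes, ratios of both arrays of a pair correlated at r = 0.58 to 0.77, and ratios of arrays from different pairs at r = -0.44 to 0.19. Of the 32 genes, 26 lay above the negative and dark spots in all 16 channels. The exceptions were DDIT3, PPP1R15A, SESN2, PSPH, MTHFD1 and MTHFD2, whose levels are less certain, and no gene was saturated. Follicles of a stage were separate samples, but nothing in the sources says which came from the same cow.

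The markers of granulosa cells (10 of 10 measured, 6 of them above background in all 16 channels) differed strongly between follicles. Their summed intensity was 66258 to 225211 in the growing follicles and 18410 to 237405 in the plateau follicles, with the lowest value in plateau follicle 3. Except in plateau follicle 3, most of each sum came from INHA and INHBA, whose probes were saturated on 8 and 7 of 16 channels. Over the other 8 granulosa markers the sum was 26992, 19912, 96340 and 58348 in growing follicles 1 to 4 and 103624, 23964, 12907 and 107142 in plateau follicles 1 to 4. Growing follicles 1 and 2 and plateau follicles 2 and 3 were thus low in this sum, and both follicles of pair 4 were among the other 4. In those other 4 most of the sum came from CYP19A1 (14.81 to 15.84) and FST (13.92 to 15.10), so the split rests mainly on these genes. FST had levels of 9.33 to 12.05 in the follicles of low sum. Not every marker followed the sum. FOXL2 was highest in growing follicle 1 (9.30). GATM had levels of 11.86 and 11.74 in growing follicles 1 and 2 and 13.48 and 12.13 in plateau follicles 2 and 3. In the other 4 follicles GATM lay at 7.67 to 8.54. NR5A2 overlapped, with 12.60 to 13.57 in the 4 follicles of low sum and 12.07 to 13.73 in the others. CYP19A1, the aromatase that makes oestradiol, had levels of 8.15 in growing follicle 2, 8.06 in plateau follicle 2 and 8.80 in plateau follicle 3, and of 11.92 to 15.84 in the other 5 follicles. The 8 markers of smooth muscle cells and fibroblasts, 4 of them above background in all 16 channels, summed to 11321 to 16108 in the growing follicles. In the plateau follicles they summed to 8448 to 108832, and the highest value again belonged to plateau follicle 3, where 7 of the 8 were above their growing partner. The other marker lists stayed in narrower ranges. Leukocyte markers (6 measured, 2 above background throughout) summed to 1400 to 1764 in growing and 1466 to 3600 in plateau follicles, with 3600 in plateau follicle 2 and 3204 in plateau follicle 3. Theca markers (5 measured, 1 above background throughout) summed to 2712 to 5252 and 1819 to 5177. Endothelial markers (7 measured, 1 above background throughout) summed to 1891 to 4074 and 1852 to 3023. Red blood cell markers (4 measured, 2 above background throughout) summed to 1069 to 1340 and 1100 to 1414. Oocyte markers (5 measured, none above background throughout, GDF9 on no array) summed to 1131 to 1263 and 1136 to 1296. Plateau follicle 3 stood apart from the other 7 in the smooth muscle and fibroblast sum. Some genes below are given with and without pair 3, and means given only with it can depend on it as well. The part of the cell makeup in all values was not tested. In such bulk samples fewer cells of a type and less RNA per cell cannot be told apart.

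**Figure D1:**
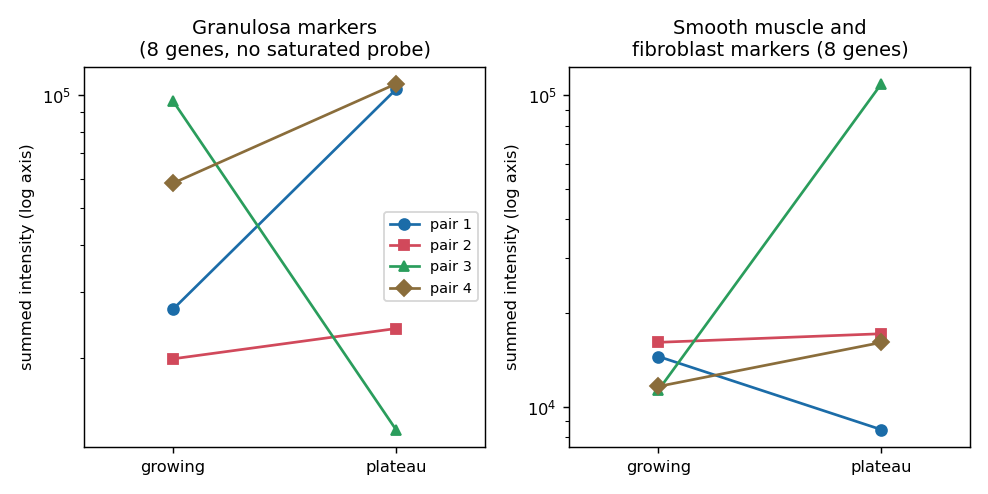
Summed intensity (log axis) of the 8 granulosa cell markers with no saturated probe and of 8 smooth muscle and fibroblast markers in each follicle, with lines joining the growing and the plateau follicle of a pair. Plateau follicle 3 has the lowest granulosa sum, 12907, followed by growing follicle 2 at 19912, and the highest smooth muscle and fibroblast sum, 108832.

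No gene of the response was separated between the growing and the plateau phase. The study's criterion, a fold change above 1.5 with an unadjusted limma p under 0.05 on a probe whose log2 intensity averaged 7 or more, was met by 0 of the 32 genes in either direction. Among all named genes it was met by 0.506% as higher and 0.525% as lower in the plateau phase, and among all 43794 probes by 0.678%, so 0 of 32 lies near that background. None of the 32 had an unadjusted limma p under 0.05, and none passed the Benjamini-Hochberg adjustment over all probes, nor did any other probe (0%). The lowest adjusted p of limma on the array was 0.9999. The mean ratio was above 0 for 17 genes and below 0 for 15, the median of the 32 was 0.01, and that of all named genes was 0.

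The means ran from -0.61 for PHGDH to 0.79 for SHMT1, and 3 genes had a mean beyond the 1.5-fold threshold (SHMT1, TARS and PHGDH). The spread among the pairs was as large or larger. The SD over the 4 pairs was 0.06 to 1.75 with a median of 0.54, against 0.33 for all named genes and 0.43 for all probes whose log2 intensity averaged 8 or more, as that of 30 of the 32 genes did. TARS alone was higher in the plateau follicle of all 4 pairs (1 of 32, against 4.79% of the named genes) and no gene was lower in all 4 (4.26% of the named genes). The remaining 31 had both signs among the pairs. For none of the 32 did the 4 plateau levels lie wholly above the growing levels (0.814% of the named genes) or wholly below them (0.703%).

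**Figure D2:**
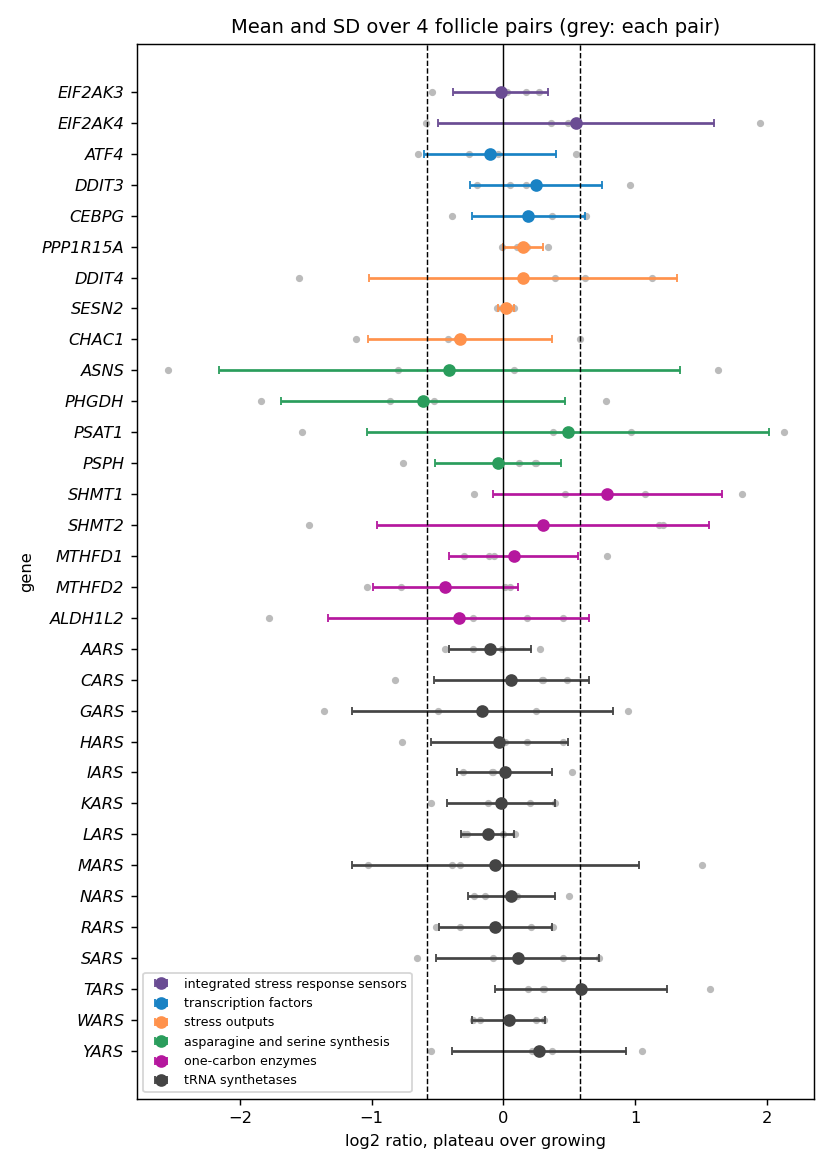
Mean log2 ratio of plateau over growing for the 32 genes, coloured by role, with bars of 1 SD over 4 pairs, grey points for the single pairs and dashed lines at a fold of 1.5. The means lie between -0.61 and 0.79, and 31 of the 32 genes have pairs on both sides of 0.

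Among the sensors, EIF2AK4, the kinase GCN2 that responds to uncharged tRNA, had levels of 10.98, 12.04, 10.77 and 10.70 in growing follicles 1 to 4. Its levels in plateau follicles 1 to 4 were 11.47, 11.45, 12.71 and 11.06. The stages overlapped, and the highest follicles of the growing and of the plateau phase were growing follicle 2 and plateau follicle 3. The mean ratio was 0.55 ± 1.05 (SD, n = 4 pairs; limma, unadjusted p = 0.249), and without pair 3 it was 0.08. EIF2AK3, the kinase PERK of the endoplasmic reticulum, had a ratio of -0.02 ± 0.36 (SD, n = 4).

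The ATF4 transcript had a range of 1.21 over the 8 follicles. Its levels were 10.28, 10.35, 9.88 and 10.38 in the growing follicles and 10.83, 10.31, 9.62 and 9.73 in the plateau follicles. The growing levels lay inside the range of the plateau levels. The ratio was -0.10 ± 0.50 (SD, n = 4; limma, unadjusted p = 0.657), from 0.55 in pair 1 to -0.65 in pair 4.

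DDIT3, which encodes CHOP, a factor that ATF4 induces under lasting stress, had levels of 8.84, 8.38, 8.30 and 8.07 in the growing follicles. In the plateau follicles its levels were 8.89, 9.34, 8.10 and 8.24. The stages overlapped and the highest level was that of plateau follicle 2, whose pair had the largest ratio (0.96). The mean ratio was 0.25 ± 0.50 (SD, n = 4; limma, unadjusted p = 0.299), and both dimmer probes of DDIT3 had means of 0.00 and -0.05. CEBPG, a partner that binds DNA together with ATF4, had a ratio of 0.19 ± 0.43 (SD, n = 4).

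The outputs of the response had no common direction. DDIT4, also named REDD1, an inhibitor of the growth kinase mTORC1, had levels of 12.66, 12.16, 12.62 and 12.80 in the growing follicles. Its plateau levels were 13.04, 13.28, 11.07 and 13.42. The plateau follicle was above its partner in pairs 1, 2 and 4, with ratios of 0.39, 1.13 and 0.62, and 3 of the plateau follicles were above all 4 growing follicles, while plateau follicle 3 was the lowest of all 8. The mean was 0.15 ± 1.17 (SD, n = 4; limma, unadjusted p = 0.769). Without pair 3 it was 0.71 and DDIT4 met the criterion, as did 419 of all 43794 probes.

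CHAC1, which breaks down glutathione and is a target of ATF4, had levels of 13.67, 12.95, 13.74 and 13.21 in the growing follicles. The plateau levels were 13.32, 13.53, 12.63 and 12.79, which overlap with them. Pairs 1, 3 and 4 had ratios of -0.35, -1.12 and -0.42 and pair 2 one of 0.58. The mean was -0.33 ± 0.70 (SD, n = 4; limma, unadjusted p = 0.305). The probe averaged -1.05 on slide 1, with plateau in Cy5, and 0.40 on slide 2, with plateau in Cy3. Dye and slide changed together, so their parts in this difference cannot be told apart. Without pair 3 the mean was -0.06.

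SESN2, a leucine sensor that restrains mTORC1, was dim. Its levels were 7.63, 8.0, 7.76 and 8.0 in the growing and 7.71, 7.98, 7.82 and 7.95 in the plateau follicles, and its probe passed the background in 4 growing and 5 plateau channels of 8 each. For this probe the levels of the stages could not be told apart, with a ratio of 0.02 ± 0.06 (SD, n = 4). A second probe of SESN2 was higher in the plateau follicle of all 4 pairs, at 0.15 ± 0.05 (SD). It lay above background on 2 growing and 4 plateau channels of 8 each. PPP1R15A, also named GADD34, which directs the phosphatase that ends eIF2 phosphorylation, had a ratio of 0.15 ± 0.15 (SD, n = 4; limma, unadjusted p = 0.169) and lay above background on 4 growing and 7 plateau channels of 8 each.

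The amino acid enzymes had the widest spread. ASNS, which makes asparagine, had levels of 13.24, 12.78, 10.87 and 10.98 in the growing follicles. In the plateau follicles the levels were 10.69, 11.98, 12.50 and 11.07. Growing follicles 1 and 2 and plateau follicle 3 were high, and both stages spanned most of the range of 2.55. The ratio was -2.55 in pair 1 and 1.63 in pair 3, with a mean of -0.41 ± 1.75 (SD, n = 4; limma, unadjusted p = 0.58), the largest SD of the 32 genes. Without pair 1 the mean was 0.30, and without pair 3 it was -1.09. A second probe of ASNS, above background on only 1 of 16 channels, had a mean of -0.10 ± 0.09.

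PSAT1, the aminotransferase in the middle of the serine pathway, had levels of 8.73, 11.66, 10.59 and 9.76 in the growing follicles. The plateau levels were 9.70, 10.13, 12.72 and 10.13. Growing follicle 2 and plateau follicle 3 were the highest, and the range of 3.99 over the 8 follicles was the widest of the 32 genes. Ratios were 0.97, -1.53, 2.13 and 0.38 and averaged 0.49 ± 1.53 (SD, n = 4; limma, unadjusted p = 0.459). Without pair 3 the mean was -0.06, and without pair 2 it was 1.16, where PSAT1 met the criterion, as did 807 of all 43794 probes.

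PHGDH, which commits 3-phosphoglycerate to serine, had levels of 8.40, 9.06, 10.04 and 10.63 in the growing follicles. The plateau levels were 9.19, 8.20, 9.51 and 8.79. Growing follicles 3 and 4 were above every plateau follicle, and growing follicle 1 was below 3 of the 4. Ratios of 0.78, -0.86, -0.53 and -1.84 gave a mean of -0.61 ± 1.08 (SD, n = 4; limma, unadjusted p = 0.218). Without pair 1 PHGDH met the criterion at -1.08, as did 1538 of all 43794 probes. PSPH, which completes serine synthesis, had a ratio of -0.04 ± 0.48 (SD, n = 4). It had levels of 7.73 to 7.98 in 7 follicles and 8.72 in growing follicle 2. A dimmer probe of PSPH was higher in the plateau follicle of all 4 pairs, at 0.21 ± 0.12 (SD). It lay above background on 1 growing and 2 plateau channels.

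Among the one-carbon enzymes, SHMT1, the cytosolic hydroxymethyltransferase that turns serine into glycine, had the largest mean of the 32 genes. Its levels were 12.69, 12.45, 11.80 and 12.03 in the growing and 13.77, 12.23, 13.61 and 12.50 in the plateau follicles. Plateau follicles 1 and 3 were above all growing follicles, and the other 2 plateau follicles lay among them. Ratios of 1.08, -0.22, 1.81 and 0.47 gave a mean of 0.79 ± 0.87, or 1.73-fold (SD, n = 4; limma, unadjusted p = 0.0762). Without pair 3 the mean was 0.44, and without pair 2 it was 1.12, where SHMT1 met the criterion, as did 807 of all 43794 probes.

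SHMT2, the mitochondrial enzyme of the same step, had levels of 9.70, 11.13, 10.71 and 11.05 in the growing and 10.88, 9.65, 11.92 and 11.34 in the plateau follicles. The stages overlapped, and plateau follicle 2 and growing follicle 1 were the low ones. Its ratio was 0.30 ± 1.26 (SD, n = 4; limma, unadjusted p = 0.575), but the 3 dimmer probes of SHMT2 had means of -0.36, -0.24 and -0.16, so the probes disagree on the sign. The probe at -0.36 lay above background on all 8 growing and 8 plateau channels and was lower in the plateau follicle of all 4 pairs. That at -0.16, above background on 6 growing and 2 plateau channels, was also lower in all 4. Without pair 3 the mean of the brightest probe was 0.

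MTHFD2, the mitochondrial dehydrogenase that oxidises methylene-tetrahydrofolate, had levels of 7.81, 8.29, 8.69 and 8.65 in the growing follicles. The plateau levels were 7.81, 7.25, 8.73 and 7.87. Pairs 2 and 4 had ratios of -1.04 and -0.78, whereas pairs 1 and 3 were level at 0.01 and 0.05. The mean was -0.44 ± 0.55 (SD, n = 4; limma, unadjusted p = 0.115), from a probe above background on 7 growing and 4 plateau channels of 8 each. A dimmer probe of MTHFD2, above background on 1 growing and 3 plateau channels, had a mean of 0.12 ± 0.13 (SD). ALDH1L2, the mitochondrial formyl-tetrahydrofolate dehydrogenase, had a ratio of -0.34 ± 0.99 (SD, n = 4). Its level was 10.34 in growing follicle 2 and between 7.93 and 8.59 in the other 7 follicles. MTHFD1, the cytosolic folate enzyme of 3 activities, had a ratio of 0.08 ± 0.49 (SD, n = 4).

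**Figure D3:**
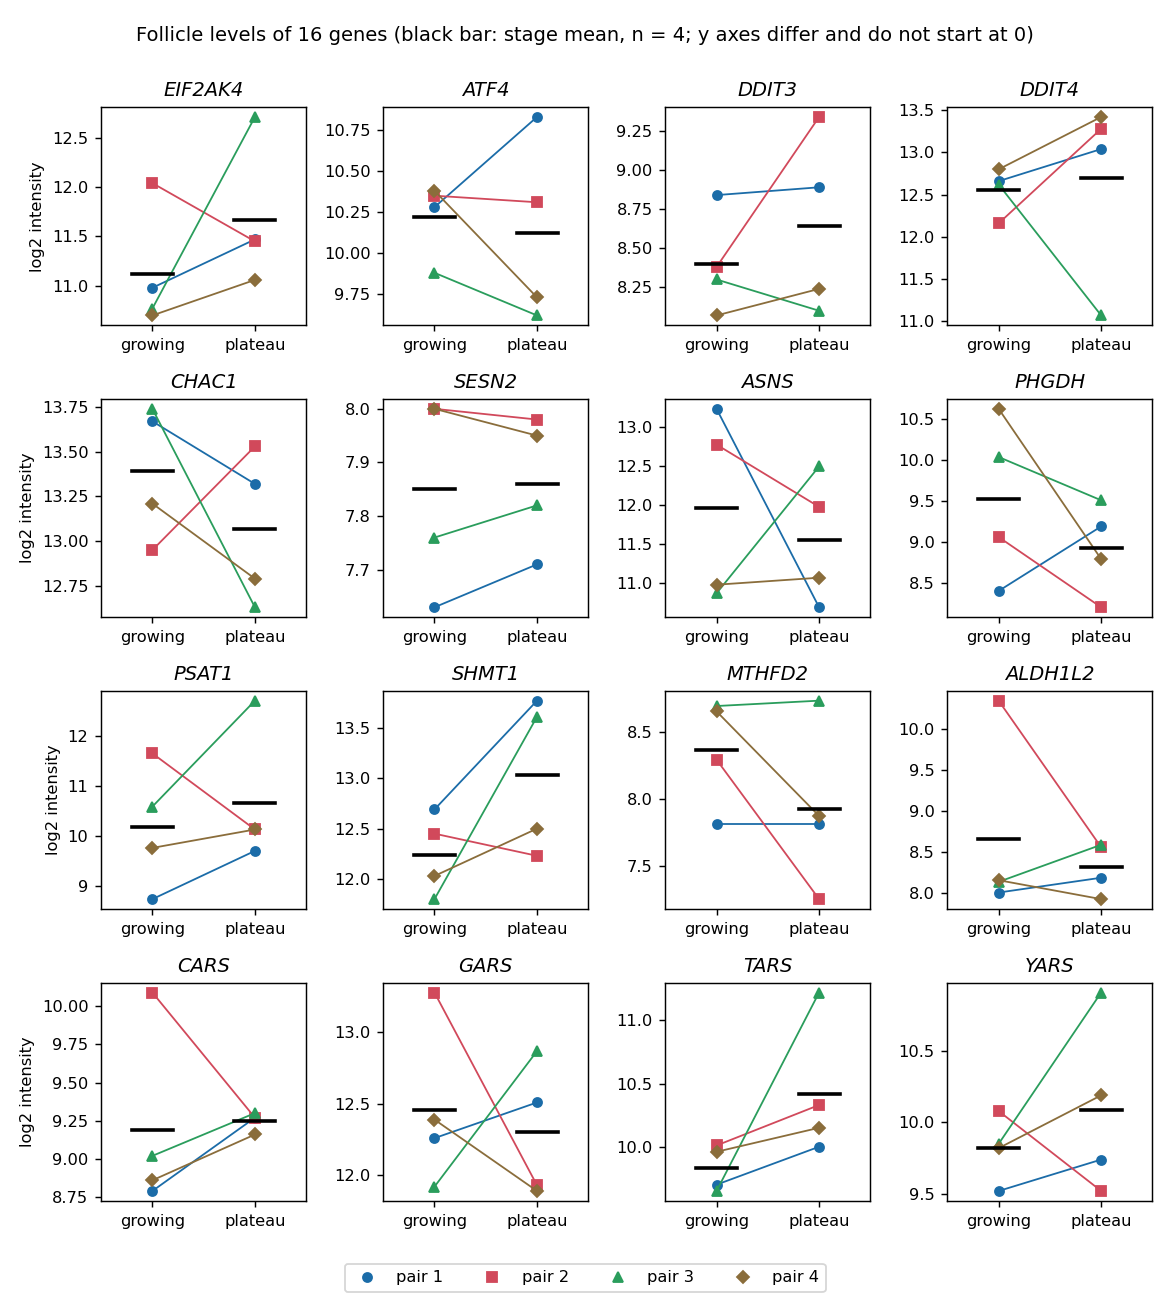
Normalised log2 intensity of 16 genes in each follicle, with lines joining the growing and the plateau follicle of a pair and black bars at the stage means (n = 4); axes differ between panels and do not start at 0. Plateau follicle 3 is high for EIF2AK4, PSAT1 and TARS and low for DDIT4, and growing follicle 2 is high for ALDH1L2, CARS and GARS.

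The 14 tRNA synthetase genes, whose enzymes each join 1 amino acid to its tRNAs, had 7 means above and 7 below 0, and a median of -0.01. Means lay between -0.16 and 0.59, a narrower span than that of the metabolic enzymes. TARS, the threonyl enzyme, had levels of 9.70, 10.01, 9.65 and 9.96 in the growing and 10, 10.33, 11.22 and 10.15 in the plateau follicles. Of the plateau follicles, 3 were above all growing ones and plateau follicle 1 was level with the highest of them. Ratios of 0.30, 0.31, 1.57 and 0.19 averaged 0.59 ± 0.65, or 1.51-fold (SD, n = 4; limma, unadjusted p = 0.079), and 0.27 without pair 3.

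YARS, the tyrosyl enzyme, had levels of 9.52, 10.08, 9.85 and 9.82 in the growing and 9.74, 9.52, 10.91 and 10.19 in the plateau follicles. Plateau follicle 3 was again the highest, plateau follicle 2 was level with the lowest growing one, and the ratio was 0.27 ± 0.66 (SD, n = 4; limma, unadjusted p = 0.363). Without pair 3 the mean was 0.01. GARS, the glycyl enzyme, had levels of 12.26, 13.28, 11.92 and 12.39 in the growing and 12.51, 11.93, 12.87 and 11.89 in the plateau follicles. Growing follicle 2 was the highest and plateau follicle 3 came next. Opposite ratios in pair 2 (-1.36) and pair 3 (0.95) left a mean of -0.16 ± 0.99 (SD, n = 4; limma, unadjusted p = 0.697), which was -0.53 without pair 3.

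The synthetases closest to 0 were IARS, KARS and HARS, the isoleucyl, lysyl and histidyl enzymes. IARS had levels of 11.45, 11.02, 10.55 and 11.01 in the growing and 11.37, 10.70, 11.07 and 10.92 in the plateau follicles, with a ratio of 0.01 ± 0.36 (SD, n = 4). KARS had levels of 14.96, 14.34, 14.65 and 14.89 in the growing and 15.15, 14.73, 14.53 and 14.34 in the plateau follicles, with a ratio of -0.02 ± 0.41 (SD, n = 4). The lowest level of KARS was the same in both stages, and for IARS both stages spanned nearly the same range. HARS had levels of 9.18, 9.80, 9.26 and 9.52 in the growing and 9.19, 9.03, 9.70 and 9.71 in the plateau follicles, with a ratio of -0.03 ± 0.52 (SD, n = 4).

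For the other 8 synthetases the levels of the stages overlapped as well. The ratio was 0.11 ± 0.62 for SARS (seryl), 0.06 ± 0.33 for NARS (asparaginyl), 0.06 ± 0.59 for CARS (cysteinyl) and 0.04 ± 0.28 for WARS (tryptophanyl), each as SD over 4 pairs. It was -0.06 ± 1.09 for MARS (methionyl), -0.06 ± 0.43 for RARS (arginyl), -0.10 ± 0.31 for AARS (alanyl) and -0.12 ± 0.20 for LARS (leucyl). MARS stood out by its spread, with 1.51 in pair 1 and -1.03 in pair 2. CARS had a level of 10.09 in growing follicle 2 and 8.79 to 9.30 in the other 7 follicles.

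**Figure D4:**
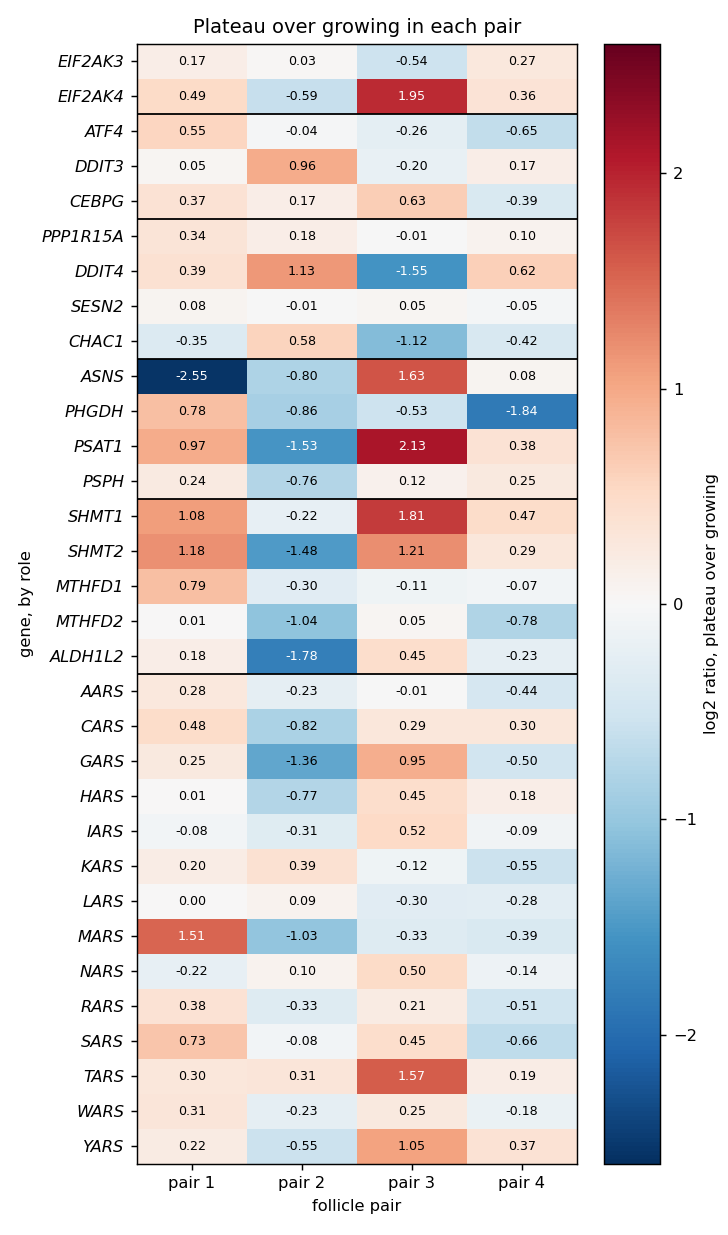
Log2 ratio of plateau over growing in each of 4 follicle pairs for the 32 genes, ordered by role, red where the plateau follicle was higher and blue where it was lower. The 9 enzymes from ASNS to ALDH1L2 are all blue in pair 2, and most are red in pairs 1 and 3.

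Seen pair by pair, the genes leaned to one side within a pair and to the other side in the next. The plateau follicle was higher for 27 of the 32 genes in pair 1, 10 in pair 2, 20 in pair 3 and 14 in pair 4. Of the 15227 named genes it was higher for 8183, 7670, 7591 and 7394, close to an even split. The median of the 32 genes was 0.29, -0.27, 0.23 and -0.08 in pairs 1 to 4, whereas that of all named genes was 0.03, 0, 0 and -0.01.

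The amino acid and one-carbon enzymes leaned the most. Of the 9, the plateau follicle was higher for 8 in pair 1, with ASNS as the exception, 0 in pair 2, 7 in pair 3 and 5 in pair 4, with medians of 0.78, -0.86, 0.45 and 0.08. Over the 4 pairs these cancelled to a median of -0.04 for the group. The synthetases leaned the same way in pairs 1 to 3 but less, with 11, 4, 10 and 4 of 14 higher and medians of 0.26, -0.27, 0.37 and -0.23. The stress sensors, factors and outputs had medians of 0.34, 0.17, -0.20 and 0.10, with 8, 6, 3 and 5 of 9 higher, and the median of the group was 0.15. Their medians had the sign of the enzymes in pairs 1 and 4 and the opposite sign in pairs 2 and 3. Within the group DDIT3, DDIT4 and CHAC1 had that opposite sign in pairs 2 and 3, whereas EIF2AK4 had the sign of the enzymes in all 4 pairs. The genes of a group share their arrays, so these counts describe 4 pairs and are no test of a group.

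**Figure D5:**
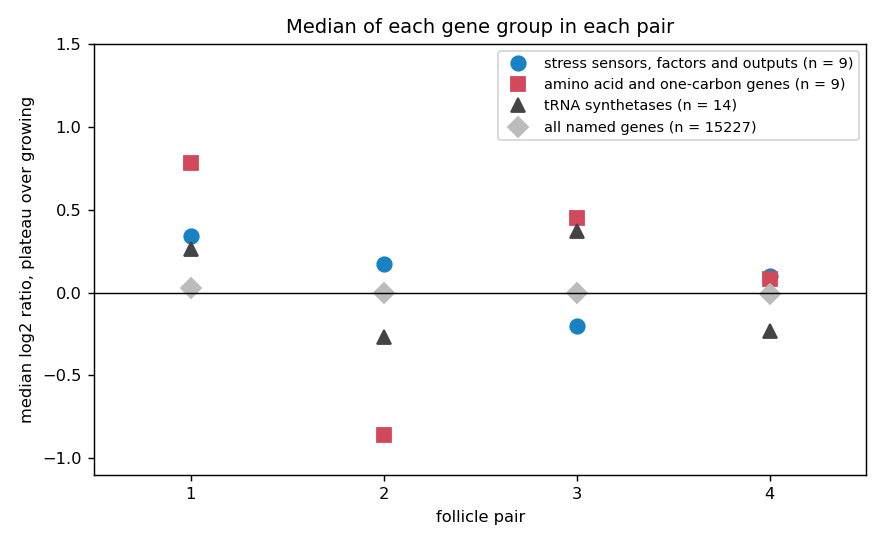
Median log2 ratio of plateau over growing in each follicle pair for 3 groups of genes and for all 15227 named genes. The amino acid and one-carbon genes run from -0.86 in pair 2 to 0.78 in pair 1, while all named genes stay between -0.01 and 0.03.

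The lean of a pair can come from either follicle, and the levels show which. The highest level of the 8 follicles belonged to plateau follicle 3 for 9 of the 32 genes (28.1%, against 15.8% of all named genes), to plateau follicle 1 for 7 (21.9%, against 13.5%) and to growing follicle 2 for 6 (18.8%, against 13.8%). Plateau follicle 2 held it for 1 gene (3.12%, against 13.9%). Relative to each gene's mean over the 8 follicles, the median of the 9 amino acid and one-carbon enzymes was 0.59 in plateau follicle 3 and 0.33 in growing follicle 2. It was -0.48 in growing follicle 1 and -0.41 in plateau follicle 2. For the 14 synthetases the same medians were 0.18, 0.17, -0.21 and -0.11, and for all named genes they lay between -0.02 and 0.01 in all 8 follicles. The same 4 follicles, 2 high and 2 low in the enzymes, had the lowest sums of the unsaturated granulosa markers (12907 in plateau follicle 3, 19912 in growing follicle 2, 23964 in plateau follicle 2 and 26992 in growing follicle 1, against 58348 to 107142 in the other 4). The higher sums of the other 4 came mostly from CYP19A1 and FST. GATM, itself among these markers, was instead highest in the 4 follicles of low sum, as given above. Smooth muscle and fibroblast sums were 108832 in plateau follicle 3 and 16108, 17163 and 14505 in the other 3. The part of these markers in the levels was not tested.

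Whether the targets followed the ATF4 message was examined over the 8 follicles. Pearson's r between the level of ATF4 and that of the other 31 genes ran from -0.72 to 0.83 and was positive for 17. By exact two-sided permutation 2 of the 31 had an unadjusted p under 0.05, and the lowest p after Benjamini-Hochberg adjustment over the 31 relations was 0.421. WARS had r = 0.83 (exact permutation p = 0.0136) and Spearman's rho = 0.69 (exact permutation p = 0.0694), and NARS had r = -0.72 (exact permutation p = 0.0442) and rho = -0.43 (exact permutation p = 0.299). Without plateau follicles 3 and 4, which had the ATF4 levels farthest from the median, these r were 0.85 and -0.64. AARS had r = 0.60 (exact permutation p = 0.115) and rho = 0.79 (exact permutation p = 0.0279, adjusted p = 0.866). For ASNS, PSAT1 and CHAC1 r was -0.12, -0.52 and 0.41 (exact permutation p = 0.781, 0.19 and 0.313). Without the same 2 follicles r turned to -0.50 for CHAC1, was -0.15 for ASNS and -0.23 for PSAT1, and went from 0.15 to 0.87 for SHMT1, so these values depend on those 2 follicles except that of ASNS. No relation held after adjustment, the follicles of a pair share an array, and each stage has too few follicles for a value of its own.

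Related genes outside the list were read in the same way, and none of them met the criterion in either direction. Of 20 further ATF4 targets with a named probe (21 listed), 16 had a mean above 0 and 4 below, with a median of 0.06. Of all named genes, 51% had a mean above 0. Of the 20 targets, 7 were above background on 9 or fewer of 16 channels, and 7 were above it on all 16, of which 6 had a mean above 0. Without pair 3, GTPBP2, PYCR1 and BCAT1 of these 6 fell to -0.04, -0.58 and -0.08. HERPUD1 and ALDH18A1 stayed above 0 (0.64 and 0.57), as did ATF3, given below. HERPUD1, however, was above 0 in pair 2 alone, with ratios of -0.97, 3, -1.23 and -0.11 in pairs 1 to 4. ALDH18A1 had ratios of 1.45, -0.60, -0.67 and 0.87. The counts above 0 thus rest in part on pair 3 and, for HERPUD1, on pair 2. The largest mean was that of ATF3, a stress-induced repressor, at 1.05 ± 1.62 (SD, n = 4; limma, unadjusted p = 0.164). Its levels were 9.01, 9.26, 8.22 and 8.06 in the growing and 8.40, 11.24, 11.06 and 8.07 in the plateau follicles, so that plateau follicles 2 and 3 were high and the other 2 were among the growing ones. Without pair 3 the mean was 0.46. The same 2 follicles had the highest leukocyte marker sums, 3600 and 3204 against 1400 to 1764 in the others, and the part of these markers in the level of ATF3 was not tested.

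The 8 amino acid transporters of the response had 1 mean above and 7 below 0, with a median of -0.13. SLC7A5, the light chain of the leucine transporter LAT1, had levels of 11.59, 14.74, 12.81 and 12.72 in the growing and 12.77, 10.94, 12.18 and 12.45 in the plateau follicles. Growing follicle 2 was the highest and plateau follicle 2 the lowest, which gave a ratio of -3.81 in pair 2 and a mean of -0.88 ± 2.10 (SD, n = 4; limma, unadjusted p = 0.339). SLC1A4, a serine and alanine carrier, and PYCR1, an enzyme of proline synthesis, had ratios of -3.59 and -2.36 in the same pair and means of -0.38 ± 2.15 and 0.04 ± 1.83 (SD, n = 4). Without pair 3 these means were -0.81 and -0.58. These 2 genes were named after their values were seen.

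The eIF2 and eIF2B subunits and further regulators (12 of 13 with a named probe) had 10 means above and 2 below 0, with a median of 0.15. IMPACT, an inhibitor of GCN2, had the largest mean of them at 0.59 ± 1.24 (SD, n = 4; limma, unadjusted p = 0.288). Its levels were 9.91, 8.57, 9.38 and 8.41 in the growing and 8.78, 10.35, 10.06 and 9.44 in the plateau follicles, with pair 1 at -1.13 and the other pairs at 0.68 to 1.78.

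Of the mitochondrial synthetases, 12 of 17 had a named probe, 8 with a mean above 0 and 4 below and a median of 0.11. IARS2 had the largest mean, 0.47 ± 0.49 (SD, n = 4; limma, unadjusted p = 0.075), with ratios above 0 in all 4 pairs (0.86, 0.04, 0.05 and 0.92). Its levels were 8.14, 8.75, 8.96 and 8.30 in the growing and 9.00, 8.79, 9.01 and 9.22 in the plateau follicles. Only plateau follicle 2 lay within the growing range. Pairs 2 and 3 were nearly level, and the dye-swap arrays of IARS2 lay up to 0.33 to either side of a pair's mean. In all, 2 of the 12 were higher in all 4 pairs, against 4.79% of the named genes. SARS2 was the 1 gene of the list with an unadjusted limma p under 0.05 (0.0407), at a ratio of 0.27 ± 0.16 (SD, n = 4) below the 1.5-fold threshold. The 2 dye-swap arrays of a pair, which also differ in slide, lay up to 0.94 to either side of the pair's mean for SARS2.

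Among 6 partners of the synthetases, 1 had a mean above 0 and 5 below, with a median of -0.13. The one above 0 was FARSB, a subunit of the phenylalanyl enzyme, at 0.58 ± 0.51 (SD, n = 4; limma, unadjusted p = 0.0417, adjusted p = 0.9999), just short of the 1.5-fold threshold, and 0.39 without pair 3. Its levels were 13.05, 13.68, 13.83 and 13.78 in the growing and 13.85, 13.69, 15.01 and 14.14 in the plateau follicles. FARSA, which encodes the other subunit of the same enzyme, had a ratio of -0.48 ± 0.49 (SD, n = 4; limma, unadjusted p = 0.0662). The 12 folate and glycine enzymes with a named probe (15 listed) had 7 means above and 5 below 0 and a median of 0.05. GLDC, the decarboxylase of the glycine cleavage system, had the largest mean, 0.73 ± 1.22 (SD, n = 4; limma, unadjusted p = 0.194). Its levels were 10.80, 11.70, 12.38 and 11.84 in the growing and 12.73, 11.07, 12.43 and 13.40 in the plateau follicles, and 3 of the plateau follicles were above all growing ones.

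Of the 32 genes, 10 had more than 1 probe, and the 47 probes gave means of both signs for 7 of these. The dimmer probes were mostly close to background, so the brightest probe decides the values above. Both dimmer probes of NARS and that of SHMT2 at -0.36 were exceptions, above background on all 8 growing and 8 plateau channels. Exchanging the dyes moved a gene's ratio in a pair to either side of the pair mean by at most 0.05 to 0.88, with CHAC1 the highest. The median of this shift over the brighter probes of the array was 0.14.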

How the data were processed

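Granulosa cell RNA of 4 growing and 4 plateau follicles was amplified and hybridised on 8 EmbryoGENE bovine arrays. The authors deposited the scanner's median intensity values of each spot and its local background, not normalised, with 12 to 30 spots per array excluded by hand. The authors also deposited a table of log2 ratios of Cy5 over Cy3, already background-corrected and normalised. Plain subtraction, loess and quantile normalisation of the intensities matched that table with r between 0.999656 and 0.999911 on the 8 arrays, which settles its scale and direction. It served as an alternative, as did the other settings in the closing section.

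For the values given here, background was corrected by normexp with an offset of 50. Loess within each array (control and excluded spots without weight) and quantile normalisation across arrays followed, in limma 3.58.1 under R 4.3.3. Ratios were turned so that plateau over growing is positive. Arrays at the same slide position were taken as the dye swaps of a pair, which the labels do not state, and were averaged to 4 pairs. Their deviations from the slide mean correlated at r = 0.76 to 0.87, against -0.44 to -0.12 for other positions. Deviations from a slide mean sum to 0, which by itself pushes the values for other positions below 0. limma's lmFit and eBayes then tested the pair averages against 0, with Benjamini-Hochberg adjustment over 43794 probes. The p-values measure the spread between these pairs only, and the number of follicle pairs limits the precision. A probe is above background where its intensity exceeds that of the 757 negative and dark spots (their mean plus 2 SD). The median spot intensity of an array was 288 to 438 (Cy3) or 187 to 287 (Cy5).

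Of the probes, 21790 have a gene symbol in the platform annotation (15227 symbols, case ignored) and 22004 are unnamed. The listed genes, the further lists and the rule for naming genes were chosen with earlier results of these data known. By that rule every gene with a probe is named, and the level of every follicle is given for ATF4, DDIT3, ASNS, PSAT1, PHGDH, MTHFD2, CHAC1, DDIT4 and SESN2, for the 3 synthetases of largest and the 3 of smallest absolute mean ratio, and for the member of largest absolute mean of each further list. EIF2AK4, SHMT1, SHMT2 and the genes with single follicles named (PSPH, ALDH1L2 and CARS) were added after their values were seen, as were SARS2 and FARSA. The same holds for GATM, NR5A2, GTPBP2, BCAT1, HERPUD1 and ALDH18A1. The fit was also tested on simulated data. Correlations with ATF4 used exact permutation of the 8 follicles.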

Additional observations from a re-analysis of the deposited data

Results flagged for a closer look

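In groups of 4 values, the highest or lowest one was tested for a gap to the others that is large for the whole range (Dixon's test), for the growing levels, the plateau levels and the pair ratios of the 32 genes. Of 96 such groups, 10 had an outlying value, where chance gives about 1 in 20 groups, or 4.8.

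Growing follicle 2 had the outlying level for PSPH (8.72) and ALDH1L2 (10.34), and pair 2 had the outlying ratio for PSPH (-0.76) and CARS (-0.82). Plateau follicle 3 had the outlying level for PSAT1 (12.72, high) and DDIT4 (11.07, low), and pair 3 the outlying ratio for TARS (1.57). The level of PPP1R15A was outlying in plateau follicle 1 (8.87, high), that of MTHFD1 in plateau follicle 2 (7.56, low) and that of MARS in growing follicle 1 (8.92, low).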

How the results depend on the processing

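The 13 alternatives were background subtraction, the deposited ratio table, loess without quantile normalisation, 8 arrays as independent, a replicate block for the follicle pairs with a dye term, each slide alone, each pair left out, the mean of all probes of a gene, and a filter on dim probes, which kept all 32 genes. None of the 32 genes passed the adjusted p under any of them, and the group medians moved by less than the spread of their pair medians. The main count of 0 genes at the criterion became 2 (SHMT1 and TARS) with 8 independent arrays and likewise 2 (the same genes) with the replicate block on pairs (correlation 0.62), which treat the arrays of a pair as partly new follicles, 1 (CHAC1) on slide 1 and 1 (TARS) on slide 2. With a pair left out it was 0 to 4: PHGDH without pair 1 (-1.08), CHAC1 (-0.63), PSAT1 (1.16), SHMT1 (1.12) and SHMT2 (0.90) without pair 2, DDIT4 (0.71) without pair 3. The count over all 43794 probes, 297, was 714 with independent arrays, 673 with the block, and 1049 and 851 on slides 1 and 2. With a pair left out it was 1538 without pair 1, 807 without pair 2, 419 without pair 3 and 338 without pair 4. Of 416 gene values under an alternative, 6 moved by 1 SD or more (SESN2, CHAC1 and WARS on single slides) and 45 had the other sign, 6 of them from a mean of at least 0.3 in size. Many of the 416 could not move that far. Independent arrays, the block and the filter on dim probes keep a gene's mean, and leaving out 1 of 4 pairs cannot shift it by 1 SD. The count of 6 is therefore no measure of stability under those settings. Averaging probes turned SHMT2 to -0.12. The cause of these shifts was not tested. Dim probes (SESN2, PPP1R15A, PSPH, MTHFD1, MTHFD2, DDIT3) limit what can be seen of small ratios.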
